A study of Homo sapiens with 3 samples.

Results

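Knockdown of HKDC1 was set directly against knockdown of RBBP5 in the PLC line of human liver cancer cells. The question was which genes part the 2 knockdowns, and the control library served only for scaling, for the filter on low values and as a level printed beside the others. The series holds 3 libraries of total RNA, of which the comparison takes 2, from cells grown in the same serum-containing medium: 1 with a short hairpin RNA against HKDC1 (labelled shHKDC1), 1 with a short hairpin RNA against RBBP5 (shRBBP5) and 1 non-targeting control (NTC). The labels give neither the hairpin sequences, nor the time after knockdown, nor whether a culture was a pool or 1 clone. Among genes whose every RefSeq transcript had a row in the deposited table, 1015 reached a mean of at least 1 CPM (counts per 1000000 counts of the library, after scaling) over the 3 libraries, and 293 of these, or 28.9%, parted the knockdowns: 116 (11.4%) were higher and 177 (17.4%) were lower in the shHKDC1 library than in the shRBBP5 library. Assembled loci that carry no gene name were kept apart: 12355 were measured, of which 901 (7.29%) were higher and 1171 (9.48%) lower.

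HKDC1, hexokinase domain containing 1, belongs to the hexokinase family, whose enzymes phosphorylate glucose on entry into the cell. RBBP5 is a core subunit, with WDR5, ASH2L and DPY30, of the complexes that methylate lysine 4 of histone H3, a mark found at active promoters. The title of the series describes HKDC1 in the nucleus as a kinase of RBBP5, so the comparison asks how far expression under the 2 knockdowns differs.

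Each group had 1 library, so nothing here was tested between conditions and no value has a replicate error. A feature is called higher or lower where the scaled level in the shHKDC1 library differed from that in the shRBBP5 library by at least 2-fold and the exact 95% Clopper-Pearson counting interval of the ratio excluded equality. Intervals cover counting error only, between these libraries and not between the conditions, and take 4 units of the table as 1 sequenced fragment. The libraries held 40437578 (NTC), 28889040 (shHKDC1) and 38633478 (shRBBP5) fragments on that reading, and a count of 3 fragments corresponds to 0.0685, 0.116 and 0.0752 CPM. Between 99.4% and 99.6% of each library lay in the loci without a name, so the named genes are a thin slice of the transcriptome. Neither HKDC1 nor RBBP5 is among the named rows, so the knockdowns themselves could not be checked. Of 17 hepatocyte markers only FGB, the fibrinogen beta chain, has a row, and ALB and AFP have none, so the liver identity of the cells could not be checked on these rows either. Endothelial and blood markers were below the filter wherever they had a row, and of 7 fibroblast or stellate markers 1, PDGFRB, passed it. Of 7 epithelial markers 2, CDH1 and CLDN4, passed it.

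Promoter sequence is shown for 6 called genes, picked by kind and not by the rank of their ratios. PKLR, the pyruvate kinase of liver and red blood cells, and TXNIP, a thioredoxin-binding arrestin that restrains glucose uptake, are textbook glucose-responsive genes, and both were far lower in the shHKDC1 library. The windows are the 250 bases before a RefSeq start (GRCh38.p14), 5′ to 3′ on the strand of the gene. The PKLR window is chr1:155300953-155301202 (minus strand, 1 of 2 starts listed) and the TXNIP window is chr1:145996580-145996829 (minus strand, 1 of 2 starts listed). Capitals mark a match to CACGNG, then NNNNN, then CNCGNG, spaced half-sites of the kind known as a carbohydrate response element, searched on both strands:
PKLR: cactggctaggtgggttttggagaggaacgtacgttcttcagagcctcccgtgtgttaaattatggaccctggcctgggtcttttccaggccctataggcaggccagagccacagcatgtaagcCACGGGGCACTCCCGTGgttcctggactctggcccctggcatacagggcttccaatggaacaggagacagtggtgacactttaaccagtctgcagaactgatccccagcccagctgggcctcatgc
TXNIP: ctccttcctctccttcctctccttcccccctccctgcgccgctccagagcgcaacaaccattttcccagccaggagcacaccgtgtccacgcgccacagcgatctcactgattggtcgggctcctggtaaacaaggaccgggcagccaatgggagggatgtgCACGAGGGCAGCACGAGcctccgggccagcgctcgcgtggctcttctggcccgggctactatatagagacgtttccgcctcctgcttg
The match lies 126 bases before the start in PKLR and 88 bases before it in TXNIP. Windows were found for 736 of the 913 measured protein-coding genes. The letters occur in 4 of 132 lower genes (3.03%: CEP162, PKLR, THNSL1 and TXNIP), in 0 of 78 higher genes, in 2 of 526 genes called neither way and in 144 of 27305 genes of the whole RefSeq table (0.527%). The motif was chosen after the values of PKLR and TXNIP were seen, and a match is a description of letters, not of a bound site.

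The second pair of promoter types contrasts genes higher in the shHKDC1 library, VLDLR and RUNX1, with genes of hepatocyte metabolism and secretion that were lower there, C8A and BAAT. The windows are chr9:2621537-2621786 (plus strand) for VLDLR, chr21:34888700-34888949 (minus strand) for RUNX1, chr1:56854547-56854796 (plus strand) for C8A and chr9:101383874-101384123 (minus strand, the more upstream of 2 starts listed) for BAAT. Capitals mark CG dinucleotides:
VLDLR: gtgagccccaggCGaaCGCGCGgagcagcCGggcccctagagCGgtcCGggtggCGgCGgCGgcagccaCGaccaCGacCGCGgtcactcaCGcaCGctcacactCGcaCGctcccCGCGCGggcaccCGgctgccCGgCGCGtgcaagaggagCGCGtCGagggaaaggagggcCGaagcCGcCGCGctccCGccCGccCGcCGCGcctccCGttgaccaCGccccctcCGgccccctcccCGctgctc
RUNX1: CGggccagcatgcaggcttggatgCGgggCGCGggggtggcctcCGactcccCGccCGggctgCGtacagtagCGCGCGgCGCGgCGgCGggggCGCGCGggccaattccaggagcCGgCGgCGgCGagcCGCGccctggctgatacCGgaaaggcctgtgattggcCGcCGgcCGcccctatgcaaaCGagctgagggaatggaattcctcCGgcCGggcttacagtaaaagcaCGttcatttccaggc
C8A: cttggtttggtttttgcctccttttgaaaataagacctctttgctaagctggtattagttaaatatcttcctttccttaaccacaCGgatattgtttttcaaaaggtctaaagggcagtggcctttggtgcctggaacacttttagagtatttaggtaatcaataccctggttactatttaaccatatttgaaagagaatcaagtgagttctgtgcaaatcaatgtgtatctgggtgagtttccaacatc
BAAT: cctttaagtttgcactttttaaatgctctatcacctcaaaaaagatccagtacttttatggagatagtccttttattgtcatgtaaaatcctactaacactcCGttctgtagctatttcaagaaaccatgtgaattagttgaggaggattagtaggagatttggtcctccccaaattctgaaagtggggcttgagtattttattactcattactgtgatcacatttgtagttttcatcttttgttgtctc
VLDLR has 41 CG dinucleotides in its window and RUNX1 has 32, whereas C8A and BAAT have 1 each. This contrast belongs to the 4 genes and not to the called sets: the median ratio of observed to expected CG was 0.683 over 78 higher genes, 0.698 over 132 lower genes and 0.755 over 526 genes called neither way. Windows poor in CG, with a ratio below 0.4, made up 16.7% of the higher genes, 21.2% of the lower genes and 12.7% of the others, against 40.6% of all 27305 RefSeq genes with a window. The E-box CACGTG, searched on both strands and read separately from the longer motif, occurred in 6.41% of higher, 12.1% of lower and 9.32% of measured genes called neither way, against 7.73% of all genes. The AP-1 motif TGANTCA occurred in 11.5% of higher, 3.03% of lower and 6.84% of genes called neither way, against 8.06% of all genes. Other motifs searched had closer shares in higher and lower genes: TEAD 16.7% and 12.9%, RUNX 15.4% and 12.9%, TATA 11.5% and 10.6%. The CCAAT box had 43.6% and 45.5%, and the GC box 74.4% and 69.7%. No motif was tested.

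Among protein-coding genes with a mean of at least 5 CPM, where counting error is smallest, differences ran mostly one way. Of 211 such genes 3 (1.42%) were higher and 30 (14.2%) were lower in the shHKDC1 library. Among the 702 with a mean of 1 to 5 CPM the split was nearer to even, with 107 (15.2%) higher and 131 (18.7%) lower, or 33.9% called in either direction; over all 913 protein-coding genes 29.7% were called. The median log2 ratio over all named genes was -0.14, and over the genes at 5 CPM or more it was -0.28.

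**Figure D1:**
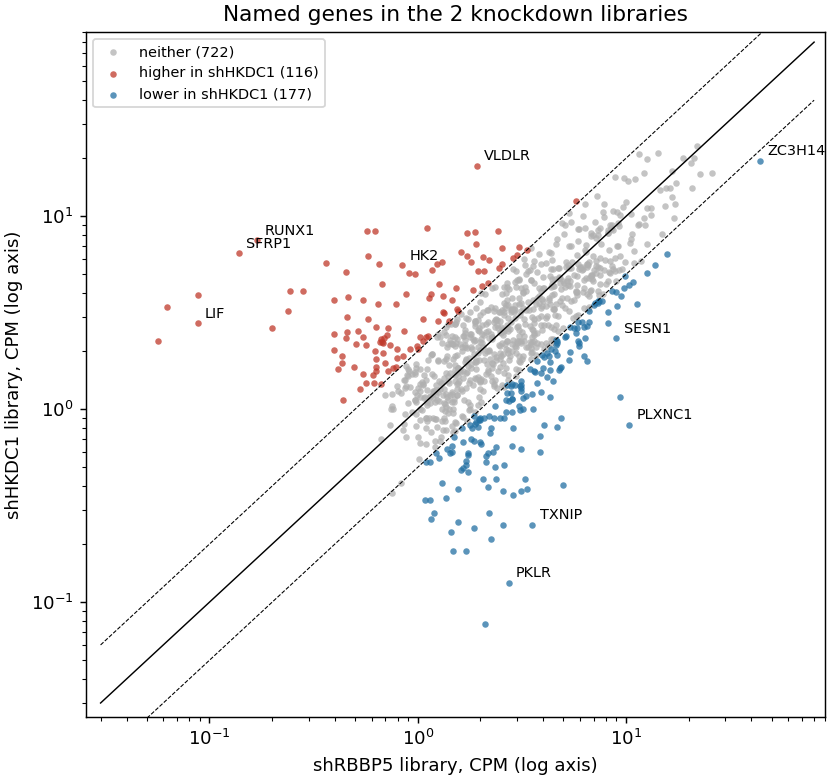
Level of each of 1015 named genes in the shRBBP5 library (horizontal axis, CPM, log scale) and the shHKDC1 library (vertical axis, CPM, log scale), with the line of equal levels and dashed lines at 2-fold; red marks the 116 genes called higher and blue the 177 called lower in the shHKDC1 library. VLDLR, RUNX1 and SFRP1 lie far above the lines and PLXNC1, PKLR and TXNIP far below them.

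VLDLR, a receptor of the low-density lipoprotein receptor family that takes up triglyceride-rich lipoprotein and binds reelin, was the gene with the widest gap upward at 5 CPM or more. It stood at 3.11 CPM in the NTC library, 18.3 CPM in the shHKDC1 library and 1.92 CPM in the shRBBP5 library. The shHKDC1 library alone was high, and the ratio to the shRBBP5 library was 9.49-fold (log2 3.25, counting interval 2.89 to 3.61). The table splits the gene over 4 RefSeq transcripts, 2 of which hold all of its counts. One went from 349 units (NTC) to 912 (shHKDC1) and 12 (shRBBP5), and the other from 196 to 978 and 295, so that both were highest in the shHKDC1 library while the first was nearly empty in the shRBBP5 library. VLDLR overlaps VLDLR-AS1, and without a stated strand setting reads from the pair cannot be told apart.

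RAPGEF6 and TRIM56 were the other 2 genes called higher at this level, but here the control lay with or above the shHKDC1 library. RAPGEF6, which loads Rap proteins with GTP, was at 9.39 CPM (NTC), 6.85 CPM (shHKDC1) and 2.53 CPM (shRBBP5), a log2 ratio of 1.43 (1.08 to 1.80). TRIM56, a ubiquitin ligase of antiviral signalling, was at 10.9, 12 and 5.74 CPM in the same order, a log2 ratio of 1.07 (0.81 to 1.32). In both genes the shRBBP5 library was the low one. The RAPGEF6 counts came from one transcript in the NTC library and from a different one in both knockdown libraries.

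**Figure D2:**
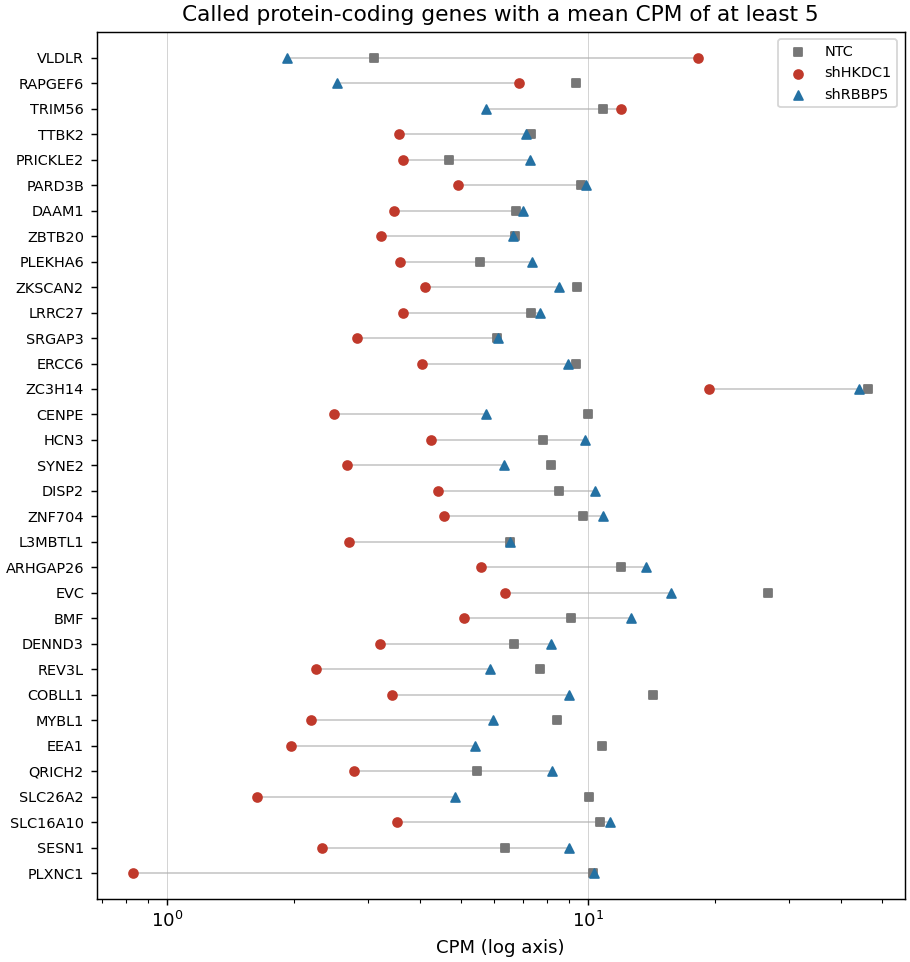
Level in CPM (log axis) of the 33 protein-coding genes called at a mean of at least 5 CPM, ordered by the ratio of shHKDC1 to shRBBP5, with 1 point for each of the NTC, shHKDC1 and shRBBP5 libraries and a grey line joining the 2 knockdowns. In the 30 lower genes the shHKDC1 point lies left of both other points.

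PLXNC1, the receptor of semaphorin 7A, was the gene with the widest gap downward at 5 CPM or more. It was at 10.3 CPM in the NTC library, 0.832 CPM in the shHKDC1 library and 10.3 CPM in the shRBBP5 library, which is 12.4-fold lower in shHKDC1 than in shRBBP5 (log2 -3.63, interval -4.29 to -2.99). The control and the shRBBP5 library could hardly be told apart, and the shHKDC1 library held 22 fragments against 413. SESN1, a p53-responsive stress protein that restrains mTORC1, followed with 6.36, 2.33 and 9 CPM (NTC, shHKDC1, shRBBP5) and a log2 ratio of -1.95 (-2.37 to -1.56). Here the shRBBP5 library lay above the control and the shHKDC1 library below it. A first SESN1 transcript held 539, 0 and 671 units (NTC, shHKDC1, shRBBP5) and another 576, 239 and 765. Both were lowest in the shHKDC1 library, but only the first was empty there.

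Membrane transporters were among the lower genes. SLC16A10, a transporter of aromatic amino acids, was at 10.7, 3.51 and 11.3 CPM (NTC, shHKDC1, shRBBP5), and the log2 ratio between the knockdowns was -1.68 (-2.02 to -1.35). SLC26A2, a sulfate transporter, was at 10.1, 1.64 and 4.85 CPM, a log2 ratio of -1.56 (-2.09 to -1.09). In SLC16A10 only the shHKDC1 library was low, whereas in SLC26A2 both knockdown libraries lay below the control and the shHKDC1 library further below. HCN3, a pacemaker-type cation channel, was at 7.81, 4.25 and 9.83 CPM, a log2 ratio of -1.21 (-1.52 to -0.90).

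Among the lower genes were 3 of the cilium or flagellum and 1 of the early endosome. EVC, which acts at the base of the cilium in Hedgehog signalling, was at 26.8, 6.35 and 15.8 CPM (NTC, shHKDC1, shRBBP5; log2 ratio between the knockdowns -1.31, -1.57 to -1.06). QRICH2, a protein of the sperm flagellum, was at 5.44, 2.79 and 8.22 CPM (-1.56, -1.95 to -1.19). TTBK2, a kinase needed to start a cilium, was at 7.34, 3.55 and 7.13 CPM, a log2 ratio of -1.004 (-1.35 to -0.66) that just passes the 2-fold rule. Of 20 measured genes for endosome, autophagy and lipid transfer 5 were lower, 1, VLDLR, was higher and 14 were called neither way (median -0.63). Over all named genes 17.4% were lower and 11.4% higher. With upper-quartile factors 3 of the 20 were lower. EEA1, the tether of early endosomes, was at 10.8, 1.97 and 5.40 CPM (-1.45, -1.92 to -1.003). EVC and EEA1 were low in both knockdown libraries against the control and lowest in the shHKDC1 library; QRICH2 was above the control in the shRBBP5 library.

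Of 14 measured genes for mitosis, replication and DNA repair, 4 were lower, 0 higher and 10 called neither way (median -0.62), against 17.4% lower and 11.4% higher over all named genes. The uncalled members include MLH3, a mismatch repair protein (9.30, 5.81 and 5.51 CPM in NTC, shHKDC1 and shRBBP5; log2 0.08, -0.23 to 0.38). CENPE, the kinesin of the kinetochore, was at 10.0, 2.50 and 5.74 CPM (NTC, shHKDC1, shRBBP5; log2 ratio -1.20, -1.64 to -0.81). REV3L, which gives translesion polymerase zeta its catalytic activity, was at 7.72, 2.26 and 5.86 CPM (-1.37, -1.83 to -0.97), and ERCC6, a factor of transcription-coupled repair, at 9.39, 4.04 and 8.95 CPM (-1.15, -1.48 to -0.83). MYBL1, a DNA-binding relative of MYB, was at 8.43, 2.2 and 5.96 CPM (-1.44, -1.88 to -1.01). In all 4 the control was the highest library.

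Of the remaining called genes at this level, ZC3H14, a poly(A)-binding zinc finger protein, had the most counts behind it. It was at 46.3, 19.4 and 44.1 CPM (NTC, shHKDC1, shRBBP5), 2.27-fold lower in shHKDC1 than in shRBBP5 (log2 -1.18, -1.33 to -1.04). BMF, a death-promoting BH3-only protein, was at 9.10, 5.07 and 12.6 CPM (-1.32, -1.61 to -1.04), with the shRBBP5 library above the control. COBLL1, a relative of the actin nucleator cordon-bleu, was at 14.3, 3.43 and 9.03 CPM (-1.40, -1.76 to -1.07). The others were regulators of small GTPases (DENND3 at -1.35, ARHGAP26 at -1.30, SRGAP3 at -1.11 and PLEKHA6 at -1.04), the histone methyl-lysine reader L3MBTL1 (-1.27), the zinc finger genes ZNF704 (-1.25), ZKSCAN2 (-1.05) and ZBTB20 (-1.04), the Dispatched relative DISP2 (-1.24), the nuclear envelope protein SYNE2 (-1.23), LRRC27 (-1.08), the formin DAAM1 (-1.02) and the polarity genes PARD3B (-1.02) and PRICKLE2 (-1.004). The direction of all 33 held under each scaling tried, as it had to, since each scaling shifts all ratios alike by less than 2-fold.

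The 2-fold rule had genes close on both sides. Just inside stood TRIM56 (log2 ratio 1.07) upward and TTBK2 and PRICKLE2 (both -1.004) downward. RAPGEF6 (1.43, 1.08 to 1.80) was the next upward but was not close to the threshold. Just outside stood ZNF227 (0.97) and PYGO1 (0.89) upward and GK5 (-0.999) and ZMAT3 (-0.99) downward. With DESeq2 size factors the calls of DAAM1, PARD3B, PRICKLE2 and TTBK2 were lost, with upper-quartile scaling those of 9 of the 33 genes, and with total counts, or with factors taken from named genes alone, that of TRIM56. When the whole counting interval was asked to lie past 2-fold, 19 of the 33 were lost, and PLXNC1, SESN1, SLC16A10, VLDLR and RAPGEF6 were among those that were not. Near-equal levels were also found at this depth: ZNF37A (8.21 and 8.24 CPM in shHKDC1 and shRBBP5), LINC00999 (8.22 and 8.17), AUTS2 (9.20 and 9.14), PACRGL (5.38 and 5.43), HAUS3 (5.38 and 5.32) and DZIP1L (4.78 and 4.84) had the smallest ratios, with counting intervals between -0.35 and 0.33 on the log2 scale.

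The largest ratios lay among genes with a mean of 1 to 5 CPM. A gene that is nearly absent from 2 libraries passes this filter only through the one where it is high, so such a gene could not have passed without a large ratio. Among the highest ratios were those of 4 transcription factors. RUNX1 was at 0.622 CPM in the NTC library, 7.53 CPM in the shHKDC1 library and 0.169 CPM in the shRBBP5 library, 43.5-fold higher in shHKDC1 than in shRBBP5 (log2 5.44, 4.35 to 6.75). Of its 3 transcripts in the table, 1 held 109, 722 and 17 units in the 3 libraries and so most of the gene. ETS1, a founding ETS factor, was at 1.19, 8.40 and 0.570 CPM (log2 3.87, 3.24 to 4.55). The homeobox gene HMX3 was at 0.291, 3.89 and 0.0877 CPM (5.41, 3.87 to 7.17), and the forkhead gene FOXQ1 at 0.302, 2.62 and 0.201 CPM (3.68, 2.65 to 4.98). In each of these 4 genes the shHKDC1 library was the only high one, and the shRBBP5 library lay below the control.

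Secreted factors and receptors were also among the highest ratios. SFRP1, a secreted antagonist of Wnt ligands, was at 0.280 CPM (NTC), 6.44 CPM (shHKDC1) and 0.138 CPM (shRBBP5), a log2 ratio of 5.51 (4.26 to 6.88). LIF, the leukaemia inhibitory factor, was at 0.411, 2.80 and 0.0877 CPM (4.93, 3.38 to 6.71). LIFR, the receptor of LIF, stood on the opposite side at 2.67, 0.184 and 1.48 CPM (-2.98, -4.61 to -1.63). The ligand was thus higher and its receptor lower in the shHKDC1 library, both against the shRBBP5 library and, by their levels, against the control. The LIFR counts of the NTC library lay in a different transcript from those of both knockdown libraries. LIF was under 1 CPM in both other libraries, so it passed the filter only through the shHKDC1 library. LIF overlaps LIF-AS1 and LIFR overlaps LIFR-AS1, and without strand such reads cannot be told apart.

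Receptors at the upper end included FLT4, the receptor of vascular endothelial growth factor C, at 0.673, 3.22 and 0.238 CPM (NTC, shHKDC1, shRBBP5; log2 ratio 3.74, 2.73 to 4.79), and UNC5B, a netrin receptor, at 1.84, 6.24 and 0.577 CPM (3.43, 2.80 to 4.13). The cytokine receptors IL21R (0.108, 3.69 and 0.395 CPM; 3.21, 2.42 to 4.06) and CSF2RA, the alpha chain of the GM-CSF receptor (0.719, 3.80 and 0.464 CPM; 3.03, 2.34 to 3.88), were also higher. IL22RA1, an interleukin 22 receptor chain, was lower (1.89, 0.184 and 1.70 CPM; -3.19, -4.81 to -1.85). Others among the 20 highest were KLRG2 (log2 4.04), the coronin CORO2B (3.97), NKAIN1 (3.84), the adaptor SH3BP2 (3.74), the acyltransferase AGPAT4 (3.49), the cancer-testis gene PASD1 (3.12), MYEOV (2.98) and CPED1 (2.75). AGAP9 (5.22) is uncertain: it rests on 2 fragments in the shRBBP5 library and shares sequence with the read-through BMS1P2-AGAP9, which went the opposite way (-1.83), and the 2 together gave -0.16 (-0.56 to 0.25).

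**Figure D3:**
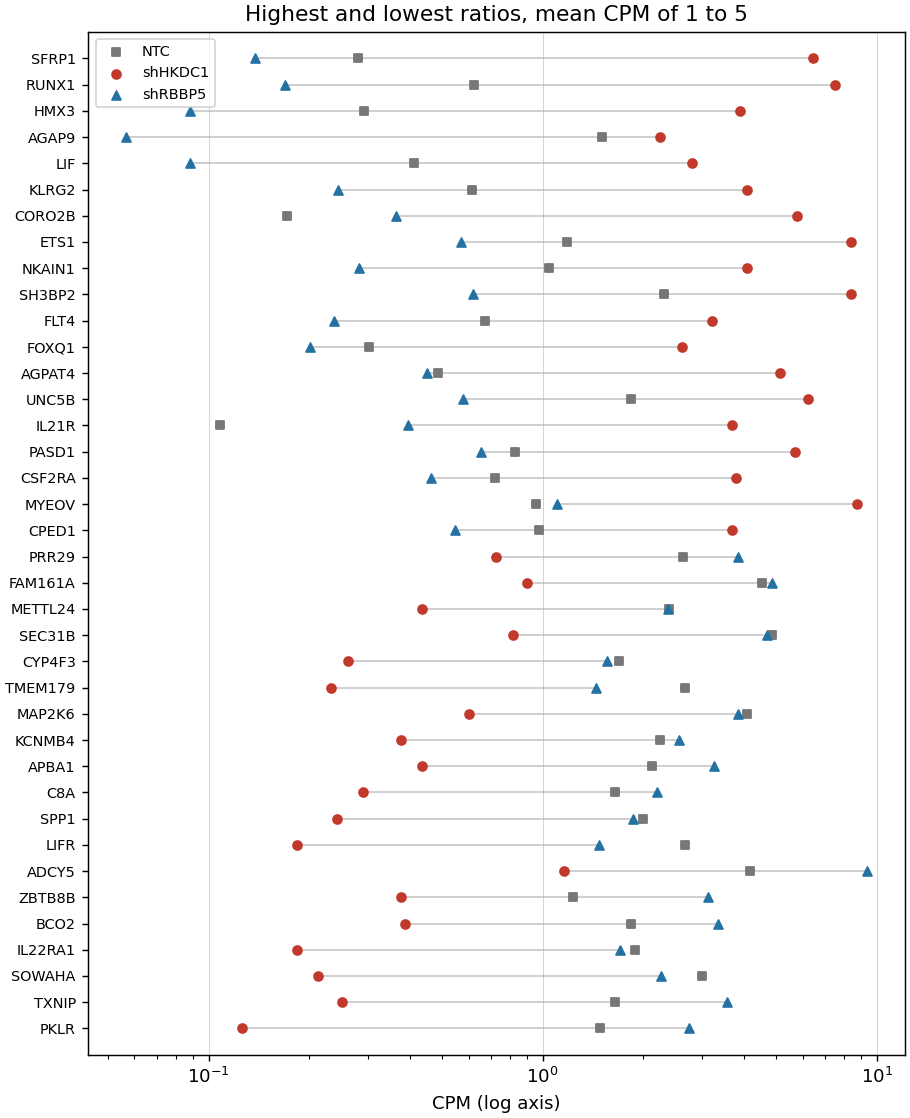
Level in CPM (log axis) of genes among the 20 highest and 20 lowest ratios of called protein-coding genes with a mean of 1 to 5 CPM, with 1 point for each of the NTC, shHKDC1 and shRBBP5 libraries and a grey line joining the 2 knockdowns. SFRP1 and RUNX1 head the upper block and TXNIP and PKLR close the lower one.

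PKLR and TXNIP had the lowest ratios reported in this range. PKLR was at 1.49 CPM (NTC), 0.126 CPM (shHKDC1) and 2.74 CPM (shRBBP5), with 65, 3 and 109 fragments (log2 -4.40, -6.86 to -2.97). TXNIP was at 1.64, 0.252 and 3.55 CPM (-3.80, -5.41 to -2.78). In PKLR and TXNIP the shRBBP5 library lay above the control and the shHKDC1 library below it. PKLR overlaps HCN3, itself lower, and their reads cannot be told apart without strand. The transcript credited with the PKLR counts differed between libraries: its counts in the NTC library sat in 1 of 2 rows (261 of 261 units), those in the shHKDC1 library in the other (13 units), and those in the shRBBP5 library in both (258 and 179).

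HK2, the inducible hexokinase of tumours, is the only hexokinase measured and went against PKLR. It was at 1.69 CPM (NTC), 5.59 CPM (shHKDC1) and 0.840 CPM (shRBBP5), 6.63-fold higher in shHKDC1 than in shRBBP5 (log2 2.73, 2.16 to 3.29). The first enzyme of glycolysis was thus high, and the last one of its liver form low, in the same library. Of the H3K4 methyltransferase subunits, BOD1L1 alone was measured, at 10.0, 6.21 and 6.94 CPM, and the knockdowns differed by a log2 ratio of -0.16 (-0.45 to 0.12).

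Other genes of the lowest 20 fell into a few kinds. SPP1 (osteopontin; 2, 0.242 and 1.86 CPM in NTC, shHKDC1 and shRBBP5; log2 -2.92) and C8A (a chain of complement component 8; 1.65, 0.290 and 2.21 CPM; -2.91) are secreted. ADCY5, an adenylyl cyclase, was at 4.17, 1.16 and 9.39 CPM (-3.01, -3.60 to -2.48), and MAP2K6, a kinase upstream of p38, at 4.10, 0.600 and 3.85 CPM (-2.67, -3.48 to -1.89). The ADCY5 counts came from one transcript in the NTC and shRBBP5 libraries and from a different one in the shHKDC1 library. BCO2, a carotenoid-cleaving enzyme (1.84, 0.387 and 3.36 CPM; -3.10), and CYP4F3, a fatty acid and leukotriene hydroxylase (1.69, 0.261 and 1.56 CPM; -2.56), add to the metabolic genes. ADCY5 and BCO2 had the shRBBP5 library well above the control, while for SPP1, MAP2K6 and CYP4F3 these 2 libraries were close. The rest were SOWAHA (-3.38), ZBTB8B (-3.04), APBA1 (-2.90), the potassium channel subunit KCNMB4 (-2.75), TMEM179 (-2.62), SEC31B (-2.52), METTL24 (-2.43), FAM161A (-2.43) and PRR29 (-2.40).

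Gene lists were compared with the background of 11.4% higher and 17.4% lower and with the median log2 ratio of -0.14 over all named genes. These are counts of the list members that passed the filter, and no list was tested. The 8 members with the highest mean CPM could be named in each list; called members beyond these 8 were chosen after their values were seen. Under total-count scaling the median of all features moved by -0.210 on the log2 scale, with upper-quartile factors by 0.114 and with factors from named genes alone by -0.122, and lists near the background moved with it.

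**Figure D4:**
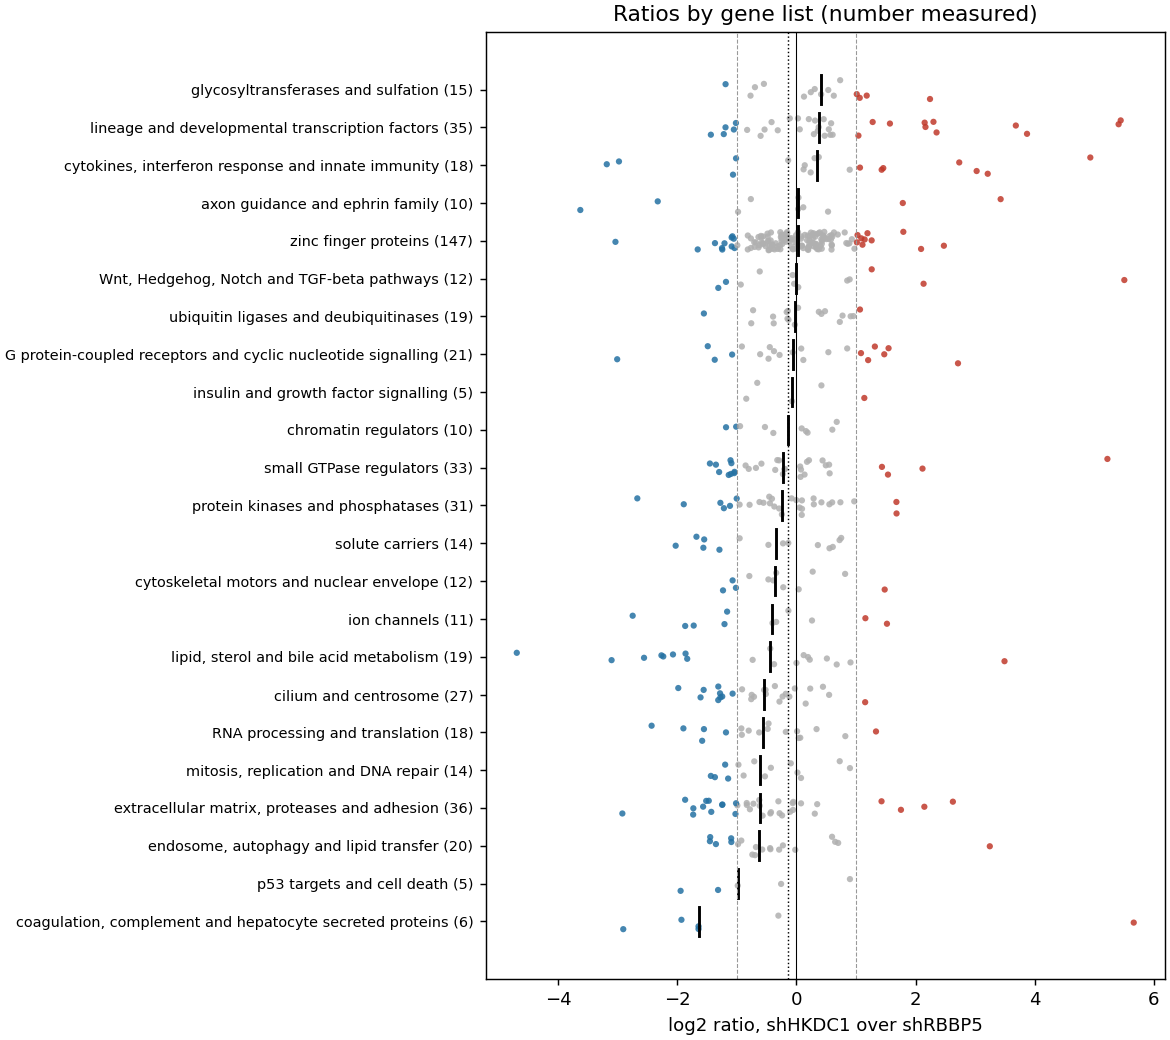
Log2 ratio of shHKDC1 to shRBBP5 (horizontal axis) of every measured member of the 23 lists with at least 5 measured genes, coloured red where called higher, blue where called lower and grey otherwise; black bars are list medians, the dotted line is the median of all named genes and dashed lines mark 2-fold. Hepatocyte secreted proteins sit lowest (median -1.65) and glycosyltransferases highest (0.41).

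In both lists of liver function more members were lower than higher in the shHKDC1 library, under every scaling tried. Each scaling shifts all ratios alike, so this adds no support. Lower members such as C8A, FGB, SERPINA5 and BAAT were under 1 CPM in the shHKDC1 library and passed the filter only through other libraries. The counts therefore support no direction for these lists. Of 6 measured genes for coagulation, complement and other hepatocyte secreted proteins, 4 were lower and 1 was higher (median -1.65). The clotting cofactor F5 was at 3.49, 0.987 and 3.10 CPM (NTC, shHKDC1, shRBBP5; log2 -1.65), FGB at 2.41, 0.600 and 2.30 CPM (-1.93) and the protein C inhibitor SERPINA5 at 1.54, 0.416 and 1.31 CPM (-1.65). In these genes and C8A the shHKDC1 library alone was low. Of 19 genes of lipid, sterol and bile acid metabolism, 8 were lower and 1, AGPAT4, was higher (median -0.44). BAAT, which conjugates bile acids to amino acids, was at 3.74, 0.832 and 4.02 CPM (-2.27, -2.95 to -1.59), and the phospholipase PLA2G6 at 5.44, 1.78 and 6.49 CPM (-1.86, -2.35 to -1.41). MOGAT3, an acylglycerol synthase, went otherwise: both knockdown libraries were at 1.40 CPM against 5.75 CPM in the control, so it did not part them (0.00, -0.66 to 0.62). The retinoic acid hydroxylase CYP26A1 did the same at 3.62, 1.45 and 1.34 CPM (0.12, -0.49 to 0.78).

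In the transport, matrix and cilium lists too more members were lower than higher, under each scaling. Some lower members, such as SPP1, were also under 1 CPM in the shHKDC1 library and passed the filter only through other libraries. These counts support no direction either. Of 14 solute carriers 5 were lower and 0 higher (median -0.35), among them SLCO2B1, an organic anion transporter, at 4.42, 1.91 and 4.68 CPM (NTC, shHKDC1, shRBBP5; log2 -1.29, -1.79 to -0.84). Of 36 genes for extracellular matrix, proteases and adhesion 12 were lower and 4 higher (median -0.62). The fibrillar collagen chain COL5A2 was lower, at 4.98, 2.82 and 6.68 CPM (-1.24, -1.63 to -0.86). The higher ones were COL4A2 and THBS1 and the laminin chains LAMB3 and LAMC3, while the laminin chain LAMA3 was not called (10.5, 5.91 and 7.96 CPM; -0.43, -0.72 to -0.15). Of 27 cilium and centrosome genes 9 were lower and 1 higher (median -0.54); the higher one was DNAH5, an axonemal dynein, at 4.31, 5.66 and 2.54 CPM (1.15, 0.77 to 1.52). CEP78 (24.6, 18.8 and 20.5 CPM; -0.12) and AHI1 (8.80, 6.12 and 7.46 CPM; -0.29) were not called. E-cadherin, CDH1, which holds epithelial cells together, was at 5.09, 1.49 and 2.97 CPM and just missed the 2-fold rule (-0.99, -1.58 to -0.47).

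In the lists of transcription factors and of cytokine genes more members were higher than lower under each scaling. Several of the higher ones, such as HMX3, FOXQ1, LIF and IL21R, were under 1 CPM in both other libraries and passed the filter only through the shHKDC1 library, so their direction was fixed by the filter and the counts support no direction for the lists. Of 35 lineage and developmental transcription factors 11 were higher and 5 lower (median 0.37), among the higher ones MITF, CDX2, MEIS2, EGR4, IKZF3 and PAX9 beside the 4 described. Their most abundant members were not called: FOXP1 was at 11.5, 21.4 and 14.3 CPM (NTC, shHKDC1, shRBBP5; log2 0.58, 0.41 to 0.75) and CLOCK at 11.6, 8.63 and 8.49 CPM (0.02, -0.22 to 0.28). Of 18 genes for cytokines, interferon response and innate immunity 7 were higher and 4 lower (median 0.34). IL18R1, the interleukin 18 receptor, was at 4.54, 5.95 and 2.21 CPM (1.43, 1.05 to 1.83), whereas the RNA sensor RIGI was level at 6.43, 7.09 and 6.44 CPM (0.14, -0.14 to 0.42) and so was NOD1 at 5.80, 8 and 7.37 CPM (0.12, -0.14 to 0.38).

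Several lists did not lean firmly. The 147 zinc finger genes, the largest list, had 10 higher and 11 lower members and a median of 0.02, and their count turned to 13 and 6 with upper-quartile factors and to 4 and 14 with total counts. Of 21 genes for G protein-coupled receptors and cyclic nucleotides 6 were higher and 4 lower, which turned to 4 and 5 with total counts. The purinergic receptor P2RY2 (5.30, 6.34 and 2.99 CPM in NTC, shHKDC1 and shRBBP5; log2 1.08) and the somatostatin receptor SSTR2 (1.284, 5.19 and 2.08 CPM; 1.32) were higher. Of 33 regulators of small GTPases 4 were higher and 9 lower, or 4 and 4 with upper-quartile factors. Of 15 glycosyltransferases 4 were higher and 1 lower, or 1 and 1 with total counts, and their ST3GAL1, a sialyltransferase, was at 4.18, 8.17 and 1.72 CPM (2.24, 1.84 to 2.65) while ST3GAL5, the GM3 synthase, was at 4.03, 1.99 and 4.56 CPM (-1.19, -1.65 to -0.73). The 2 sialyltransferases thus stood on opposite sides of the control in the shHKDC1 library.

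Smaller lists gave single genes of interest. Of 10 genes for axon guidance, ROBO3, a guidance receptor of the Robo family (2.90, 8.41 and 2.44 CPM in NTC, shHKDC1 and shRBBP5; log2 1.78, 1.44 to 2.15), and UNC5B were higher, and PLXNC1 and SEMA3G (1.73, 0.513 and 2.59 CPM; -2.33) lower. Of 12 genes of the Wnt, Hedgehog, Notch and TGF-beta pathways 3 were higher and 2 lower, with the Notch co-activator relative MAMLD1 at 2.77, 8.29 and 1.89 CPM (2.13, 1.75 to 2.54) and the Wnt target AXIN2 uncalled at 5.52, 3.89 and 7.45 CPM (-0.94, -1.29 to -0.61). Of 3 YAP targets NT5E (1.12, 6.26 and 1.72 CPM; 1.86) and AMOTL1 (0.793, 2.24 and 0.658 CPM; 1.76) were higher and RBMS3 was not called (-0.92). Of 5 measured genes of insulin and growth factor signalling IRS2, an insulin receptor substrate, was higher at 2.09, 5.40 and 2.45 CPM (1.14, 0.76 to 1.53), a call that total-count scaling ended. Of 10 chromatin regulators 2, ARID4A (-1.18) and ARID5B (-1.01), were lower, near the 17.4% of all named genes, and the call of ARID5B was lost with DESeq2 size factors and with upper-quartile factors. TET2, a DNA demethylase, was at 5.80, 4.30 and 2.69 CPM and was not called (0.68, 0.28 to 1.08). Of 5 genes for p53 targets and cell death BMF and SESN1 were lower, and BCL2L11 was not called (8.20, 11 and 13.2 CPM; -0.26).

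Of 102 measured noncoding genes 6 (5.88%) were higher and 16 (15.7%) lower. The 6 higher were JAKMIP1-DT (1.36, 1.62 and 0.414 CPM in NTC, shHKDC1 and shRBBP5; log2 1.96), LINC00673 (1.44, 4.47 and 1.26 CPM; 1.82), LINC00648 (1.31), LINC00491 (1.31), WASIR2 (1.09) and ZNF818P (1.02). The lowest were SLC5A4-AS1 (3.52, 0.407 and 5.00 CPM; -3.61, -4.78 to -2.79), LOC107985532 (2.42, 0.252 and 2.57 CPM; -3.33), the pseudogenes DNM1P35 (1.22, 0.358 and 2.85 CPM; -2.98) and FER1L4 (2.58, 0.397 and 2.18 CPM; -2.45), BMS1P2-AGAP9 and LINC02298 (-1.74). SLC5A4-AS1 overlaps SLC5A4, and antisense and sense reads cannot be told apart. Over all called named genes, 55 of the 116 higher and 103 of the 177 lower overlap another RefSeq gene. Overlaps of uncalled genes were not counted, so these counts do not set the called genes apart.

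Most genes that part the knockdowns had the control near the shRBBP5 library. Among the 177 lower genes the NTC level was nearer to shRBBP5 in 161 and nearer to shHKDC1 in 16, and the median levels were 2.84 CPM (NTC), 1.05 CPM (shHKDC1) and 3.13 CPM (shRBBP5). Among the 116 higher genes the NTC level was nearer to shRBBP5 in 75 and nearer to shHKDC1 in 41, with medians of 1.29, 3.20 and 0.749 CPM. The control lay between the knockdowns in 107 of the lower and 81 of the higher genes, above both in 66 and 11, and below both in 4 and 24. The same counts over all measured genes are not given, so these do not set the called genes apart. The filter also takes in the NTC level. With a filter over the 2 knockdown columns alone, 163 genes were lower and 134 higher. The shHKDC1 library was also the shallowest, and its TMM scaling factor was 0.894 against 1.08 (NTC) and 1.03 (shRBBP5); the part of depth in these counts was not tested. Higher protein-coding genes had a median longest transcript of 4138.5 bases, lower ones 5068.5 bases and the others 5121.5 bases, and across 894 genes, which are not independent replicates, length and log2 ratio had a Spearman rho of -0.12.

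**Figure D5:**
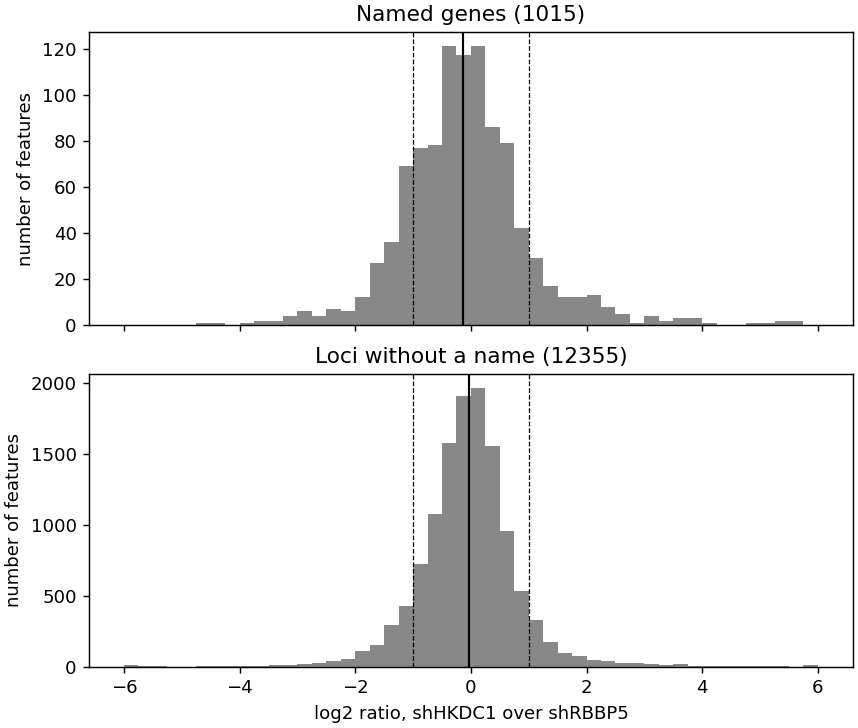
Number of features (vertical axes) by log2 ratio of shHKDC1 to shRBBP5 (horizontal axis, bins of 0.25, values past 6 in size drawn in the end bins) for 1015 named genes and 12355 loci without a name; solid lines are the medians, -0.14 and -0.03, and dashed lines mark 2-fold. The middle 90% of named genes lie between -1.69 and 1.84, and of loci between -1.33 and 1.21.

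Of the loci without a name, which carry nearly all reads, 16.8% were called in either direction, against 28.9% of named genes. Their median log2 ratio was -0.03, and at a mean of at least 10 CPM 485 of 9231 (5.25%) were higher and 670 (7.26%) lower. Named genes were on the whole measured at lower levels, with a median of the mean CPM of 2.60 against 28.2 for loci, and both shares varied with the level. At 1 to 2 CPM 16.8% of named genes and 16.6% of loci were higher, and 20.3% and 20.1% lower. At 2 to 5 CPM 11.8% and 16.6% were higher, and 16.2% and 17.2% lower. At 5 to 10 CPM 1.74% and 9.1% were higher, and 16.9% and 13.1% lower. From 10 CPM upward 0 of 44 named genes and 5.25% of loci were higher, and 6.82% and 7.26% lower. The control was again mostly nearer to shRBBP5, in 736 of 901 higher and 1046 of 1171 lower loci, with no count over all loci beside it. The files do not pair these loci with names. The widest upward gap at 10 CPM or more was at MSTRG.3132, with 1 fragment in the NTC, 904 in the shHKDC1 and 1 in the shRBBP5 library (log2 10.24, 7.97 to 15.75), followed by MSTRG.14354 (0.925, 30.5 and 0.558 CPM; 5.76, 5.18 to 6.47). The widest downward gaps were at MSTRG.13795, with 679, 2 and 1170 fragments (-8.49, -11.61 to -6.71), and MSTRG.8533 (19.8, 0.581 and 30.5 CPM; -5.71, -6.56 to -4.99). In these 4 loci too the shHKDC1 library was the one that stood apart.

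The balance of higher and lower calls depended on the scaling. Higher calls were 39.6% of all calls on named genes and 43.5% of those on loci with TMM factors. With total counts and no factor they were 25.7% and 25.9%. With upper-quartile factors they were 49.5% and 54.4%, and with TMM factors from named genes alone 31.4% and 32.7%. No called named gene changed sign under these scalings, but none could have. Each scaling shifts all ratios alike, and by less than the 2-fold that a call asks for.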

How the data were processed

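RNA of 3 libraries was read from 1 table of the whole series. Its values, as deposited by the authors, are estimated counts per assembled locus or RefSeq transcript, in whole numbers that pile up at 4 units. The tools listed in the submitters' processing notes, with no role given for any, are DESeq2 (1.28.1), StringTie (1.3.4) and HISAT2 (2.2.1), and the build is hg19. Rows were matched by accession to RefSeq names (GRCh38.p14) and summed per symbol: 27354 of 27403 transcript rows matched. Genes with a row for every RefSeq transcript (11641 of 12033) were used as named genes, 392 others were kept apart, and 16301 rows were loci without a name. Whole-number values were scaled with TMM factors (edgeR 4.0.16, R 4.3.3) from all 3 columns, features under a mean of 1 CPM were left out, and log2 ratios took a pseudocount of 0.5 units. The count model planned for replicated counts was not used, as each group has 1 library; the call rule was tested on simulated data. That 4 units make 1 fragment was assumed after the values were seen.

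Named in the text are all protein-coding genes called at a mean of 5 CPM or more, genes among the 20 highest and 20 lowest called at 1 to 5 CPM (some are not reported here), the 6 highest and lowest noncoding genes, 2 of the loci on each side, up to 8 members by mean CPM of each list, hexokinases and H3K4 methyltransferase subunits, the 2 genes inside and outside the threshold on each side and the 6 nearest to equality. The members, lists and rules were chosen with earlier results of these data known, and 20 symbols matched to a list by prefix alone were removed by hand after their values were seen. Other scalings, filters, pseudocounts and readings of the unit were tried. Python 3.11.15, pandas 2.3.3 and SciPy 1.17.1 gave the intervals, and DESeq2 1.42.0 the alternative size factors. Coordinates of the table itself were not used here.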

Additional observations from a re-analysis of the deposited data

How the results depend on the processing

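The counts of named genes and loci, and their medians, were recomputed under other scalings, filters, pseudocounts and readings of the unit; no paired analysis was possible because each group holds 1 library. With no filter on CPM 660 named genes were higher and 390 were lower (5576 genes, median 0 on the log2 scale); at a mean of at least 5 CPM 3 were higher and 32 were lower (median -0.27). Asking the whole interval to lie past 2-fold, a rule added after the data were seen, left 68 named genes higher, 63 lower and 732 loci lower. Total-count scaling gave 1758 lower loci and medians of -0.36 (named genes) and -0.24 (loci); upper-quartile factors gave -0.0124 and 0.0789; TMM factors from named genes alone gave -0.26 and -0.16. In these settings the cause was not tested, beyond the different number of genes that a filter leaves. The other settings (DESeq2 size factors, a filter over the 2 knockdown columns, a pseudocount of 5 units, each unit taken as 1 read, the 20 most abundant rows left out, partly named genes added, and TMM over the deposited rows, the last also added after seeing the data) left every count within 1.5 times its main value. Between 0 and 33 of the 293 named calls were lost under a single scaling or pseudocount. None changed sign, but these settings move a called ratio by too little to do so. At 3 fragments or fewer, as in the shHKDC1 library for PKLR, depth limits the ratio to its wide counting interval.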

Other observations

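Genes with rows for only some of their RefSeq transcripts were left out of the counts above, since reads of their other transcripts may lie in loci without a name. Of 74 such genes past the filter 4 (5.41%) were higher and 20 (27.0%) lower in the shHKDC1 library than in the shRBBP5 library. Among named genes the shares were 11.4% and 17.4%, and the difference was not tested. The 4 higher were the transcription factor GATA3 (2.71, 4.59 and 1.67 CPM in NTC, shHKDC1 and shRBBP5; log2 1.45, 1.00 to 1.90), the ubiquitin ligase RNF125 (1.14, 3.26 and 0.733 CPM; 2.15, 1.54 to 2.82), FHL1 (1.69) and SETBP1 (1.13). Among the lower ones, named after their values were seen, the desmosomal cadherin DSC2 was at 9.16, 5.22 and 14.9 CPM (-1.52, -1.80 to -1.24), the clock gene PER3 at 9.99, 3.07 and 6.75 CPM (-1.14, -1.52 to -0.77), the signal transducer STAT5A at 4.51, 1.06 and 3.34 CPM (-1.66, -2.33 to -1.07) and the potassium channel KCNH2 at 6.6, 1.99 and 4.13 CPM (-1.05, -1.52 to -0.58).

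Near-identical copies can share reads. RIMBP3 and RIMBP3B together were at 2.91, 1.61 and 3.45 CPM (log2 ratio -1.10, -1.62 to -0.58), and SMIM10L2A and SMIM10L2B together at 5.36, 2.14 and 5.59 CPM (-1.38, -1.85 to -0.96), so both pairs stayed lower in the shHKDC1 library when summed, unlike AGAP9 and its read-through.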
